A study of Mus musculus with 24 samples.

Results

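The early response of wild-type mouse pancreas to caerulein was measured by RNA sequencing of polyadenylated RNA from whole pancreas. The caerulein group held 3 mice with the +/+ genotype of Nr5a2 (called WT) that received 7 hourly intraperitoneal injections of caerulein at 50 ug/kg and were killed 8 h after the first injection. The saline group held 3 mice of the same genotype labelled as saline-treated. All mice were on a C57BL background, and each library came from a different animal. The sources used here give neither age nor sex. The WT 8 h and WT saline libraries are 6 of the 24 in the series, which also holds WT mice at 24 and 48 h and mice with the +/- genotype of Nr5a2 (called HET) under the same treatments, 3 animals per group. Genes with at least 1 FPKM (fragments per kilobase of transcript, normalized by the authors) in at least 3 of the 24 libraries were compared, which gave 12858 genes of the 36806 in the table.

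Caerulein is an analog of the gut hormone cholecystokinin. It binds the receptor encoded by Cckar on acinar cells, which fill most of the organ and secrete its digestive enzymes, and normally triggers calcium release and exocytosis of zymogen granules. Doses above those that give maximal secretion block secretion, activate trypsinogen inside the cell and cause a mild, reversible pancreatitis in rodents, in which acinar cells lose part of their differentiated programme and gain features of duct cells before they recover.

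The 8 h libraries were prepared with a v2 library guide and 8 cycles of PCR, and WT saline replicates 1 and 2 with an earlier guide and 10 cycles. The guide of WT saline replicate 3 is not stated, since neither list names it. Every difference between 8 h and saline below therefore holds the change of guide as well as the treatment, and with no batch that holds both groups these cannot be told apart. Comparison of 48 h with 8 h stays within the v2 guide and is given for the main genes. Summed FPKM ran between 479172 and 664626 at 8 h and between 866120 and 1007572 in saline, and 16160 to 17718 genes against 15034 to 15467 genes had a value above 0. Total reads are unknown, but ratios of the lowest values showed that 1 read stood for 1 to 1.53 units at 8 h and 2.89 to 3.76 units in saline, in units of the FPKM of 1 read in WT 8 h replicate 1. Low levels were thus read more coarsely in saline. Libraries correlated at r = 0.941 to 0.945 within the 8 h group, 0.929 to 0.931 within the saline group and 0.766 to 0.818 between the groups, over the log2(FPKM + 1) of the genes tested. Of 12 acinar markers, 5 (Cpa1, Cpb1, Pnlip, Cel and Amy2a5) were listed at exactly 0 in all 6 libraries. Of the 7 acinar markers tested 4 fell and none rose, Cckar, Zg16, Ctrl and Ptf1a, and 2 fell without WT 8 h replicate 1. All 7 were above 0 in every library, with Sycn, a zymogen granule protein, at 10600, 13700 and 16600 FPKM at 8 h and 33400, 41000 and 30500 FPKM in saline. The liver markers summed to 10.7 to 15 FPKM at 8 h and 24.7 to 37.6 FPKM in saline. Most of the saline sum was Ttr, also on the islet list, at 30.2, 27.3 and 22.9 FPKM in saline and 3.35, 8.1 and 5.4 FPKM at 8 h. The intestinal markers summed to no more than 1.18 FPKM at 8 h and 1.26 FPKM in saline.

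Fold changes are differences between group means of log2(FPKM + 1), 8 h minus saline, given with their standard error from limma, and a gene is said to have risen, fallen or changed where its Benjamini-Hochberg adjusted p over all genes tested was below 0.05. This scale understates the change of genes at a few FPKM or less. At 8 h 3621 genes were higher, 28.2% of those tested, and 2935 were lower, 22.8%, so that 6556 genes, 51%, were called. Large changes were more often increases. At least 2-fold changes were called for 1883 higher and 1200 lower genes, and at least 16-fold changes for 60 higher and 7 lower genes. The values of the groups did not overlap for 7222 genes, 56.2% of those tested. In 69 of the calls 1 of the groups was listed at 0 in all of its libraries, and no fold is given for these. The median fold change over all genes was 0.05. Of the genes tested, 860 were under 1 FPKM in all 6 libraries, and 148 reached 1 FPKM in 8 h libraries of WT or HET mice and in no others, so that they entered the comparison only through their high group. Among these 148 genes 135 were called higher and are part of the 3621. Of 367 genes that just met the filter, with exactly 3 libraries at 1 FPKM or more, 59 were called. A further 572 genes with exactly 2 such libraries stayed out.

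**Figure D1:**
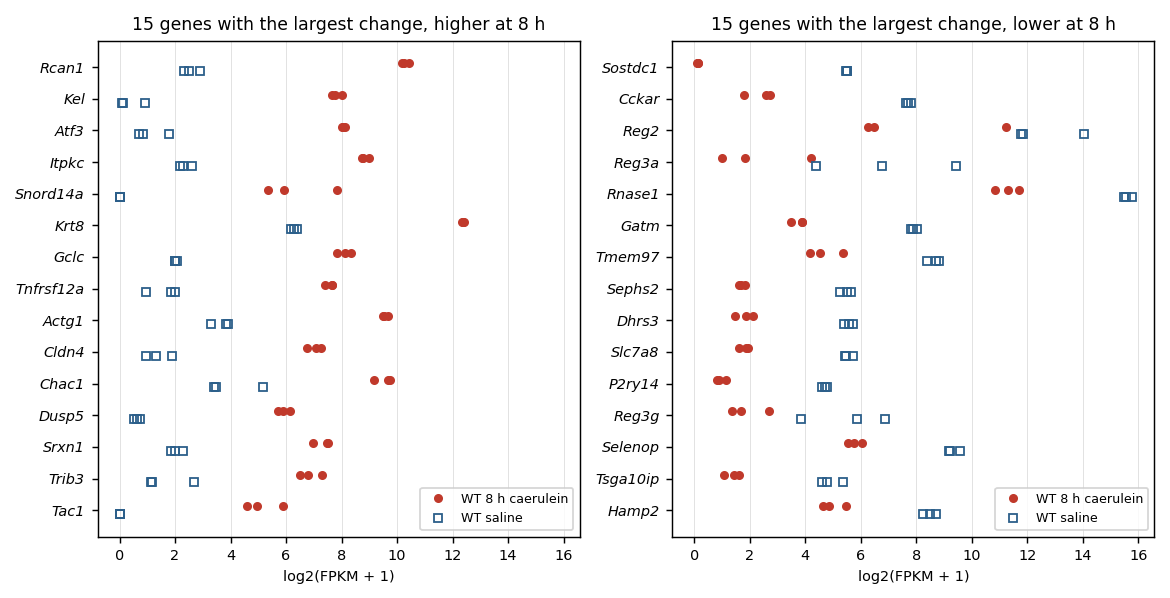
Level of the 15 genes with the largest fold change in each direction among called genes with an official symbol, groups that do not overlap and a mean of at least 10 FPKM with no zero in the higher group, as log2(FPKM + 1) on a linear axis, with each WT 8 h library as a filled circle and each WT saline library as an open square. The choice of genes fixes that the groups are separated. They come close for Reg3a, for which the highest 8 h library measured 17.4 FPKM and the lowest saline library 19.8 FPKM.

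Among genes with an official name, the largest change was in Rcan1, the feedback inhibitor of the calcium-activated phosphatase calcineurin, and 3 genes without such a name changed more. Rcan1 measured 1230, 1160 and 1370 FPKM at 8 h and 4.03, 6.53 and 4.67 FPKM in saline (log2 fold change 7.71 ± 0.17, adjusted p = 4.8e-17). All 3 caerulein-treated animals were high and close to each other. The receptor gene Cckar moved the other way and measured 2.5, 4.98 and 5.69 FPKM at 8 h and 222, 209 and 195 FPKM in saline (−5.33 ± 0.40, adjusted p = 1.45e-09). Rcan1 and Cckar were chosen among genes with groups that do not overlap, so the separation of their groups is no added result. The gene lists here and below were chosen with earlier results of these data known. Their shares beside those of all genes can thus be partly fixed by that choice. Of 34 genes of secretagogue signalling, calcium handling and exocytosis, 9 rose and 9 fell, close to the shares over all genes, with a median of −0.16. Ano1, the calcium-activated chloride channel of acinar cells, rose (2.43 ± 0.22), as did the plasma membrane syntaxin gene Stx3 (2.35 ± 0.18). Rab27a, a GTPase of granule docking, fell (−2.08 ± 0.15). Itpkc, which phosphorylates the calcium-releasing messenger inositol trisphosphate and was not on that list, measured 440, 511 and 425 FPKM at 8 h and 3.92, 3.56 and 5.18 FPKM in saline (6.47 ± 0.29).

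Genes of the immediate early response, which are transcribed within minutes of a growth or stress signal, rose as a group. Of 44 such genes and MAP kinase feedback genes 31 rose and 1 fell, the kinase gene Sgk1 (−2.11 ± 0.53), at a median of 1.96. Dusp5, a phosphatase that inactivates ERK in the nucleus, measured 70.3, 58.4 and 51.5 FPKM at 8 h and 0.679, 0.528 and 0.421 FPKM in saline (5.30 ± 0.24, adjusted p = 1.26e-12). It was also chosen among genes with groups that do not overlap, which fixes the separation of its animals. Tnfrsf12a, the receptor of the cytokine TWEAK (5.97 ± 0.27), Sphk1, which makes sphingosine 1-phosphate (4.23 ± 0.22), and Ier5 (3.53 ± 0.19) also rose. Srf, the serum response factor that drives many of these genes, measured 27.5, 30.6 and 23.4 FPKM at 8 h and 3.29, 2.62 and 2.8 FPKM in saline (2.85 ± 0.12).

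AP-1 and small Maf genes encode leucine zipper factors that bind as dimers. Of the 13 tested 11 rose and none fell, and the other 2, Fos and Batf3, did not pass. Atf3, a stress-induced repressor of the family, measured 267, 275 and 256 FPKM at 8 h and 0.778, 0.634 and 2.42 FPKM in saline (6.96 ± 0.24, adjusted p = 2.66e-14). Maff (2.98 ± 0.19), Jund (2.29 ± 0.19) and Mafg (2.16 ± 0.18) rose too. Fosl1, which encodes Fra-1, measured 7.61, 5.81 and 8.05 FPKM at 8 h and was listed at 0 in all 3 saline libraries. Fos itself measured 16.8, 16 and 6.68 FPKM at 8 h and 1.3, 4.3 and 15.6 FPKM in saline, and Myc 26.9, 27.3 and 23.2 FPKM and 13.1, 13.9 and 28.4 FPKM. The groups overlapped for both of these, which were chosen after their values were seen, with WT saline replicate 3 the highest saline animal each time.

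Promoter windows of some of these genes are shown because they hold the letters that the factors above are known to bind. The windows come from the RefSeq table for build GRCm38.p6, run from 200 bases before a listed start to the base before it, and are written 5′ to 3′ on the strand of the gene. Capitals mark the AP-1 motif TGANTCA in Rcan1 and Srxn1, and the CArG box, the site of serum response factor, in Dusp5 and Srf. The Rcan1 window is the second of 2 in the table.
Rcan1 (GRCm38.p6 chr16:92400079-92400278, minus strand): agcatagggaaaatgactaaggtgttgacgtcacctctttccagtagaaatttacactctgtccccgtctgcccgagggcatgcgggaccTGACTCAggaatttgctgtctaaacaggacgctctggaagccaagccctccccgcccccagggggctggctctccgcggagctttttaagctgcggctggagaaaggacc
Srxn1 (GRCm38.p6 chr2:152105324-152105523, plus strand): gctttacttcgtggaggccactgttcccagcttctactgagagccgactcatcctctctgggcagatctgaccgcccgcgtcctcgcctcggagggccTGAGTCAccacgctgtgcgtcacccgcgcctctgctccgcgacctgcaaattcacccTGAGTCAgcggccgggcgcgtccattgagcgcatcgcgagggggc
Dusp5 (GRCm38.p6 chr19:53528945-53529144, plus strand): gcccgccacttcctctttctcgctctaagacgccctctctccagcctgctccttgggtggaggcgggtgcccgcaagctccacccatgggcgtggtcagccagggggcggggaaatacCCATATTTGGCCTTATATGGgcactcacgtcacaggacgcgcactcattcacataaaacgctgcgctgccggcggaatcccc
Srf (GRCm38.p6 chr17:46556163-46556362, minus strand): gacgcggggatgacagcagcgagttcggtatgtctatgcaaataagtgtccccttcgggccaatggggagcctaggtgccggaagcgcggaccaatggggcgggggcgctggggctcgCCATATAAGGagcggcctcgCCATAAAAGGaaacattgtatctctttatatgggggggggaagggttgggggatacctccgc

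The AP-1 match began 110 bases before the start in Rcan1 and at 102 and 45 bases in Srxn1, and the CArG boxes began at 82 and 72 bases in Dusp5 and at 82 and 62 bases in Srf. Searched on both strands over the whole 300 bases from 250 before to 50 after the first listed start, TGANTCA was in 5.83% of 2746 promoters of genes that rose, in 4.08% of 2278 of genes that fell and in 5.14% of all 9381. The CArG box was in 1.71% of risen, 1.01% of fallen and 1.36% of all. The CRE-like motif TGACGNCA was in 6.70%, 5.31% and 5.64%, and the NF-kB motif in 5.39%, 4.26% and 5.23%. The E-box CACGTG was in 11.7%, 10.5% and 10.3%, and the NR5A2 site TCAAGGNCA in 0.874%, 0.878% and 1.04%. Matches of different motifs overlapped in 22 promoters. These shares are descriptions with no test.

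The cytoskeleton and epithelial markers changed together. Of 44 genes of actin, tubulin and serum response factor targets, 36 rose and 1 fell, the myosin light chain gene Myl9 of contractile cells (−1.39 ± 0.37), at a median of 1.87. Actg1, cytoplasmic gamma actin, measured 725, 813 and 739 FPKM at 8 h and 8.93, 13.9 and 13.2 FPKM in saline (5.89 ± 0.21, adjusted p = 4.81e-14). Actin genes are near copies of each other with many pseudogenes, so the split of reads between them is uncertain. Zyx, a focal adhesion protein, measured 197, 186 and 164 FPKM and 7.18, 6.89 and 7.84 FPKM (4.46 ± 0.15). The tubulin genes Tubb6 (4.47 ± 0.18) and Tuba1c (3.25 ± 0.14) and the tropomyosin gene Tpm4 (3.66 ± 0.17) rose as well.

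Of 32 markers of duct cells and of acinar dedifferentiation, 23 rose and 1 fell, at a median of 2.03. Keratins 8 and 18, the filament proteins of simple epithelia, and keratin 19 of ducts were among them. Krt8 measured 5160, 5500 and 5250 FPKM at 8 h and 76.5, 83.3 and 71 FPKM in saline (6.09 ± 0.25, adjusted p = 3.7e-13). Krt18 measured 3630, 3860 and 3680 FPKM and 157, 142 and 127 FPKM (4.71 ± 0.23), and Krt19 333, 299 and 310 FPKM and 23.6, 23.8 and 13.8 FPKM (3.92 ± 0.22). The 3 treated animals lay within a narrow band for each keratin. The tight junction gene Cldn4 (5.65 ± 0.45), the cadherin gene Cdh1 (3.49 ± 0.18) and S100a11 (3.71 ± 0.16) rose, while the duct factor Sox9 did not pass (0.35) and Spp1 did not either (−0.34), both chosen after their values were seen. Of 23 genes of the EGF receptor family and growth factors, 13 rose and 1 fell, Igf1 (−1.98 ± 0.24). The ligand genes Hbegf (4.26 ± 0.29) and Btc (3.65 ± 0.23) and the receptors Egfr (2.59 ± 0.28) and Erbb3 (1.86 ± 0.18) were among those that rose.

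**Figure D2:**
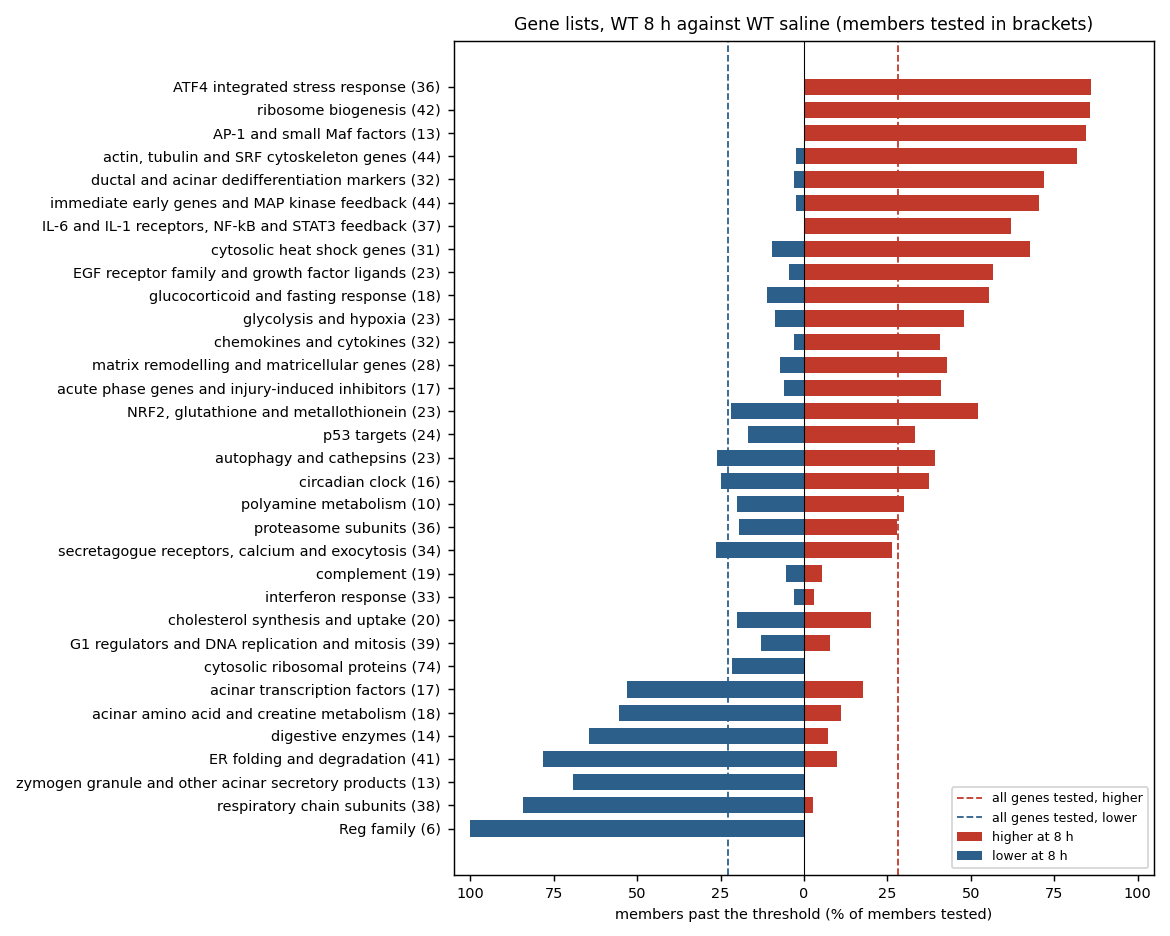
Share of the members of each gene list past the threshold, in percent of the members tested, which are counted in brackets. Bars to the right are members higher at 8 h than in saline and bars to the left members lower, and the dashed lines are the shares over all genes tested, 28.2% higher and 22.8% lower. The ATF4, ribosome biogenesis, AP-1 and cytoskeleton lists reach furthest to the right, and the Reg family, respiratory chain, secretory product and endoplasmic reticulum lists furthest to the left. List members were chosen with earlier results of these data known.

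Several stress programmes rose. The integrated stress response lowers general translation and, through the factor ATF4, raises genes of amino acid supply and cell death control. Of 36 ATF4 target genes 31 rose and none fell, at a median of 1.38, against the 28.2% of all genes that rose. Chac1, which degrades glutathione, measured 818, 847 and 572 FPKM at 8 h and 34.9, 10.2 and 9.6 FPKM in saline (5.50 ± 0.46, adjusted p = 9.8e-09). Trib3, an inhibitor of ATF4 and of Akt, measured 89.9, 111 and 156 FPKM and 5.41, 1.18 and 1.25 FPKM (5.21 ± 0.48). Saline replicate 1 was the highest saline animal for both genes, which were also chosen with groups that do not overlap. Sesn2 (3.93 ± 0.26), the cystine carrier gene Slc7a11 (3.41 ± 0.19) and the cationic amino acid carrier gene Slc7a1 (2.26 ± 0.18) rose. Capitals below mark the ATF4 element TGATGNAA in the same 200 bases before the start of Atf3 and Chac1, in these windows on the opposite strand. In Hspb1 they mark the heat shock motif GAANNTTC. These windows are shown because they hold the motifs, so the matches in them are no result. Windows of other members, such as Trib3, are not shown.
Atf3 (GRCm38.p6 chr1:191183334-191183533, minus strand): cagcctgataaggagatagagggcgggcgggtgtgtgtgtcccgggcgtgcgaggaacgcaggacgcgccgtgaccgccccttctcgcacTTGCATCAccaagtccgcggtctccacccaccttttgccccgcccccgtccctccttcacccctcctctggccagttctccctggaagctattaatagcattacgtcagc
Chac1 (GRCm38.p6 chr2:119351042-119351241, plus strand): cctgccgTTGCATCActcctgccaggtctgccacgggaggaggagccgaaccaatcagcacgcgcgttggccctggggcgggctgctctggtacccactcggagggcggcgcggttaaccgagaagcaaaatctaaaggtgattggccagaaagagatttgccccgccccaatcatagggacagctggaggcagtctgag
Hspb1 (GRCm38.p6 chr5:135887719-135887918, plus strand): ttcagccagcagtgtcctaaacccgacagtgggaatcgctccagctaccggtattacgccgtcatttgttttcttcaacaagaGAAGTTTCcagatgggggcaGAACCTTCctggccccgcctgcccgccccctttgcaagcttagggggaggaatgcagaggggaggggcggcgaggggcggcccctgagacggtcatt

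The ATF4 element was in 2.77% of the promoters of genes that rose, 1.93% of those of genes that fell and 2.32% of all, and the heat shock motif in 5.03%, 6.23% and 5.51%. Of 31 cytosolic heat shock genes, which encode protein-folding chaperones, 21 rose and 3 fell (Fkbp4, Dnajb4 and Ahsa1), at a median of 0.87. Hspa8, the constitutive HSP70, measured 769, 892 and 700 FPKM at 8 h and 125, 72.5 and 121 FPKM in saline (2.91 ± 0.21). Hspb1, a small heat shock protein, measured 92.4, 159 and 112 FPKM and 12.1, 14.2 and 13.2 FPKM (3.07 ± 0.18). Hspa1a, the inducible HSP70, measured 5.24, 14.5 and 9.61 FPKM and 0.17, 0.147 and 0.421 FPKM (3.02 ± 0.25), with reads hard to assign between it and its near copy Hspa1b. Hspb8 (2.80 ± 0.17) and Hsp90aa1 (2.57 ± 0.22) rose too.

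Of 23 genes of the NRF2 antioxidant response, glutathione and metallothioneins, 12 rose and 5 fell. These were 52.2% and 21.7%, against 28.2% and 22.8% of all genes. Gclc, the catalytic subunit that limits glutathione synthesis, measured 324, 225 and 275 FPKM at 8 h and 3.16, 2.98 and 2.97 FPKM in saline (6.08 ± 0.23, adjusted p = 1.29e-13). The sulfiredoxin gene Srxn1 measured 175, 124 and 180 FPKM and 3.84, 3.02 and 2.65 FPKM (5.26 ± 0.22). The selective autophagy receptor gene Sqstm1 (3.48 ± 0.26), Txnrd1 (2.82 ± 0.13) and Nfe2l2, which encodes NRF2 itself (2.05 ± 0.15), rose. The 5 that fell were Gstm1 (−2.78 ± 0.27), Prdx6, Fth1, G6pdx and Gclm, the modifier subunit that pairs with GCLC (−0.89).

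Genes of folding and quality control in the endoplasmic reticulum, which acinar cells hold at high levels for enzyme synthesis, mostly fell. Of 41 tested 32 fell, 78.0% against the 22.8% of all genes, and 4 rose, at a median of −1.08. Sel1l, the scaffold of the degradation complex, measured 29.3, 39.4 and 45.3 FPKM at 8 h and 420, 363 and 371 FPKM in saline (−3.32 ± 0.34, adjusted p = 1.08e-07). The co-chaperone Dnajb11 (−2.78 ± 0.23) and Ssr1 of the translocon (−2.02 ± 0.18) fell. The 4 that rose were the oxidase Ero1l (1.90 ± 0.17), the stress sensor Ern1, which encodes IRE1 alpha (1.48 ± 0.12), the chaperone Hspa5, also called BiP (1.58 ± 0.31), and Dnajb9 (0.47). Hspa5 measured 817, 1020 and 1410 FPKM at 8 h and 573, 260 and 294 FPKM in saline. The treated and saline animals did not overlap for Hspa5, though WT saline replicate 1 stood apart from the other saline animals.

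Acinar products fell. Over genes not treated as missing in any of the 6 libraries, 40 digestive enzyme, secretory product and Reg genes made up 16%, 20.6% and 22.5% of summed FPKM at 8 h and 48.8%, 56.4% and 60.1% in saline. Some of the 40 were listed at 0 in all 6 libraries and added nothing to the sums. The mean share was 19.7% ± 3.35 at 8 h and 55.1% ± 5.78 in saline (SD, n = 3 each), a difference of −35.3 percentage points (two-sided exact permutation p = 0.1, the smallest that 3 animals against 3 can give). In RNA of a whole organ, fewer acinar cells and less of these RNAs per acinar cell cannot be told apart. Only 14 of the 28 enzyme genes on the list that were found in the table were tested, and 13 were at 0 in all 6 libraries. Among the untested, 10 were treated as missing, such as Cpa1, Cpb1, Prss2, Cela1, Cela2a, Cel and Pnlip. The table listed these 10 at 0 in every library of both groups while other groups held at least 100 FPKM.

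Of 14 digestive enzyme genes tested 9 fell and 1 rose, at a median of −1.67. Rnase1, the pancreatic ribonuclease, measured 1840, 2530 and 3340 FPKM at 8 h and 48500, 56500 and 45900 FPKM in saline (−4.33 ± 0.80, adjusted p = 0.00014). Clps, the colipase that anchors pancreatic lipase to fat, measured 10500, 17600 and 19600 FPKM and 90500, 116000 and 103000 FPKM (−2.74 ± 0.68, adjusted p = 0.00215). The phospholipase gene Pla2g1b (−2.31 ± 0.72), the elastase-like Cela3a (−1.81 ± 0.35) and the amylase gene Amy1 (−1.47 ± 0.44) fell. The member that rose was Prss1, one trypsinogen gene of a family of near copies, at 21.4, 29.9 and 11.5 FPKM and 5.88, 4.31 and 11.7 FPKM (1.41 ± 0.46, adjusted p = 0.0156). Its groups overlapped, and reads may have been divided between the copies, several of which were listed at 0. Prss1 was not called without WT 8 h replicate 2 or without WT saline replicate 2. Without WT 8 h replicate 1, 4 enzyme genes in place of 9 were called lower, and Pla2g1b (adjusted p = 0.0505) and the chymotrypsin-like Ctrl (adjusted p = 0.0534) were not.

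Of 13 zymogen granule and other secretory product genes 9 fell and none rose, at a median of −2.01. The granule lectin gene Zg16 measured 4180, 6340 and 7150 FPKM at 8 h and 37400, 59200 and 48800 FPKM in saline (−3.05 ± 0.90, adjusted p = 0.00801). The trefoil peptide gene Tff2 measured 900, 1390 and 1820 FPKM and 6770, 10400 and 8670 FPKM (−2.69 ± 0.64). Ang, an acinar ribonuclease (−2.88 ± 0.36), the mucin gene Muc1 (−2.11 ± 0.25) and Dmbt1 (−2.01 ± 0.39) fell. Tmem97 (−3.96 ± 0.40) fell too and is counted in this list, although it encodes a membrane protein and no secreted product. The trypsin inhibitor gene Spink1 measured 3010, 3150 and 4780 FPKM at 8 h and 4760, 7610 and 7310 FPKM in saline and did not pass (adjusted p = 0.119).

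All 6 Reg genes tested fell, at a median of −3.40. These genes encode secreted lectins of the pancreas that are known from pancreatitis and islet regeneration. Reg2 measured 75.1, 87.4 and 2420 FPKM at 8 h and 3700, 3530 and 16800 FPKM in saline (−4.57 ± 1.07, adjusted p = 0.00141), with replicate 3 the highest of each group. Reg1 measured 4710, 11000 and 18500 FPKM and 61700, 40700 and 61700 FPKM (−2.45 ± 0.56). Reg3g measured 1.58, 2.21 and 5.51 FPKM at 8 h and 56.6, 13.3 and 115 FPKM in saline (−3.60 ± 0.83). The spread between animals was wide, and 3 in place of 6 Reg genes passed when variances came from the 8 h and saline libraries only, with Reg2 (adjusted p = 0.0781), Reg3a (adjusted p = 0.0759) and Reg3b (adjusted p = 0.0902) no longer called. Over all alternatives the adjusted p of Reg2 lay between 8.65e-06 and 0.0781.

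Transcription factors of the acinar cell fell in part. Of 17 tested 9 fell and 3 rose, at a median of −1.09. Nr5a2, the nuclear receptor the series was designed around, measured 3.2, 2.25 and 2.78 FPKM at 8 h and 12.6, 9.26 and 10.2 FPKM in saline (−1.64 ± 0.19, adjusted p = 5.14e-07), with no overlap. Creb3l1, a factor of secretory pathway capacity (−2.81 ± 0.17), Foxa2 (−1.73 ± 0.23) and Mecom (−1.53 ± 0.16) fell. Ptf1a of the PTF1 complex measured 16.2, 19.6 and 38 FPKM and 64.9, 44.7 and 42.5 FPKM (−1.08 ± 0.43, adjusted p = 0.044), a call that held in 9 of 16 alternatives and was lost, among others, without WT 8 h replicate 1 (adjusted p = 0.171). Foxa3 (1.63 ± 0.21) and Gata6 (0.43) were among those that rose. Bhlha15, which encodes Mist1 and builds the secretory apparatus, measured 26.2, 34.5 and 42.3 FPKM at 8 h and 74.5, 71.6 and 76.7 FPKM in saline and missed the threshold (−1.12 ± 0.46, adjusted p = 0.052) although its groups did not overlap. Xbp1, which drives endoplasmic reticulum expansion, measured 263, 287 and 377 FPKM and 322, 340 and 291 FPKM (−0.05 ± 0.27). Both were chosen after their values were seen.

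Other genes with large decreases had varied roles. Gatm, which makes the creatine precursor guanidinoacetate and is highly expressed in rodent acinar cells, measured 13.7, 13.7 and 10.1 FPKM at 8 h and 260, 234 and 224 FPKM in saline (−4.16 ± 0.29). Of 18 genes of amino acid and creatine metabolism 10 fell and 2 rose, at a median of −0.97. The amino acid carrier Slc7a8 (−3.74 ± 0.16) was among those that fell, and Mat2a, which makes the methyl donor S-adenosylmethionine (2.83 ± 0.21), was among those that rose. Selenop and Sephs2, both of selenium metabolism, fell by 3.55 and 3.77 on the log2 scale. Sostdc1, a secreted inhibitor of BMP signalling, measured 0.0688, 0.0957 and 0.104 FPKM and 43, 44.3 and 44.7 FPKM (−5.37 ± 0.39), the steepest decrease of a tested gene on this scale. The purinergic receptor gene P2ry14 (−3.74 ± 0.24), Tsga10ip (−3.54 ± 0.37) and Hamp2, a hepcidin gene (−3.49 ± 0.51), fell too.

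Energy and translation genes moved in different directions. Of 38 nuclear genes of the respiratory chain 32 fell and 1 rose, Cycs (0.61), at a median of −0.99. Ndufa4 measured 45.1, 51.8 and 49.7 FPKM at 8 h and 161, 158 and 135 FPKM in saline (−1.61 ± 0.17), and Atp5o fell too (−1.47 ± 0.20). Of 23 glycolysis and hypoxia genes 11 rose and 2 fell (Bnip3 and Gpi1), with the glucose carrier Slc2a1 at 33.3, 25.4 and 47.6 FPKM and 2.05, 1.75 and 2.46 FPKM (3.52 ± 0.20) and the stress-responsive gene Ndrg1 at 753, 582 and 729 FPKM and 54.5, 51.3 and 51.4 FPKM (3.68 ± 0.23). Scaled to the total without enzyme, secretory product and Reg genes, the glycolysis list had 6 higher and 1 lower. Of 42 ribosome biogenesis genes, which act in the nucleolus, 36 rose and none fell, at a median of 1.29. Nop58 (2.73 ± 0.17), Heatr1 (2.32 ± 0.11) and Ddx21 (2.13 ± 0.11) were among them. Of 74 cytosolic ribosomal protein genes 16 fell, 21.6% against the 22.8% of all genes, and none rose, at a median of −0.39. That count was 6 without WT 8 h replicate 1, 9 without WT 8 h replicate 2, 9 without WT saline replicate 2, 25 with variances from the 8 h and saline libraries only and 27 with the scaling just named.

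Growth control genes showed little of the cell cycle. Of 39 G1 regulators and genes of DNA replication and mitosis 3 rose and 5 fell, below the shares over all genes, at a median of −0.02. The proliferation marker Mki67, chosen after its values were seen, measured 0.178, 0.203 and 0.0655 FPKM at 8 h and 0.125, 0.0202 and 0.368 FPKM in saline. The count was 5 higher and 10 lower with a pseudocount of 0.1 and 3 each with the scaling without enzyme genes. Among 24 p53 target genes 8 rose and 4 fell, 33.3% and 16.7%, near the 28.2% and 22.8% of all genes. The cell cycle inhibitor Cdkn1a measured 199, 196 and 198 FPKM at 8 h and 16.7, 5.38 and 25.4 FPKM in saline (3.79 ± 0.36), and Gadd45a 30.2, 25.5 and 20.6 FPKM and 0.851, 0.738 and 0.937 FPKM (3.83 ± 0.23). Among 10 polyamine genes 3 rose and 2 fell, 30% and 20% and likewise near those shares, and Sat1, which starts polyamine breakdown, measured 384, 363 and 495 FPKM and 26.7, 20.5 and 21.6 FPKM (4.11 ± 0.21). Of 36 proteasome and ubiquitin genes 10 rose and 7 fell, near the shares over all genes, with 6 and 4 under the scaling without enzyme genes and 9 and 3 without WT 8 h replicate 1.

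Of 23 autophagy and cathepsin genes 9 rose and 6 fell, 39.1% and 26.1%, against 28.2% and 22.8% of all genes. The lysosomal protease genes Ctsl, at 1160, 820 and 983 FPKM at 8 h and 194, 191 and 215 FPKM in saline (2.29 ± 0.25), and Ctsb, the protease known to activate trypsinogen (1.45 ± 0.21), rose, and the lysosomal membrane gene Lamp1 fell (−0.75 ± 0.11). Of 16 clock genes 6 rose and 4 fell, 37.5% and 25%, against 28.2% and 22.8% of all genes, and the repressor gene Nfil3 measured 116, 140 and 153 FPKM and 7.18, 5.48 and 4.19 FPKM (4.39 ± 0.20). Of 18 genes of the glucocorticoid and fasting response 10 rose and 2 fell (Lpin1 and Nr3c1), with Fkbp5, a classic glucocorticoid target, at 2.11 ± 0.23. Of 20 cholesterol genes 4 rose and 4 fell, 20% each and near the shares over all genes, with Msmo1 the clearest (2.22 ± 0.25).

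Inflammatory signals were raised in part. Of 32 chemokine and cytokine genes 13 rose and 1 fell, Cxcl12 (−1.46 ± 0.35), at a median of 0.88. These were 40.6% and 3.13%, against 28.2% and 22.8% of all genes. Lif, a cytokine of the IL-6 family, measured 46.9, 28.4 and 14.1 FPKM at 8 h and 0, 0.111 and 0.0532 FPKM in saline (4.72 ± 0.35, adjusted p = 1.39e-09). The monocyte attractants Ccl2 and Ccl7 measured 30.4, 32.1 and 15.6 FPKM and 24.5, 18.6 and 14.8 FPKM at 8 h, and 0.757, 0.655 and 1.57 FPKM and 1.8, 1.34 and 0.639 FPKM in saline. They rose by 3.72 ± 0.35 and 3.17 ± 0.30, and no treated animal overlapped a saline animal. The receptor antagonist Il1rn (3.06 ± 0.49) and Cxcl16 (1.53 ± 0.24) rose. Il6 measured 0.662, 1.59 and 0.0913 FPKM at 8 h and 0, 0.226 and 0 FPKM in saline and did not pass (adjusted p = 0.0647), nor did Tnf (0.28) and Il1b (0.85), 3 genes chosen after their values were seen.

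Of 37 receptor and feedback genes of IL-6, IL-1, NF-kB and STAT3 signalling 23 rose and none fell, at a median of 1.18. The share that rose was 62.2%, where 28.2% of all genes rose and 22.8% fell. Rela, the p65 subunit of NF-kB, measured 85.1, 97.9 and 92.5 FPKM at 8 h and 7.97, 10.4 and 8.82 FPKM in saline (3.21 ± 0.14). Osmr, the oncostatin M receptor (2.98 ± 0.21), Irak3 (2.86 ± 0.19) and Il17ra (1.97 ± 0.17) rose. Of 17 acute phase genes and injury-induced inhibitors 7 rose and 1 fell, Itih4, with the iron-binding lipocalin Lcn2 at 77.4, 95.4 and 103 FPKM and 1.73, 1.17 and 2.95 FPKM (5.01 ± 0.45) and Ptx3 at 3.45 ± 0.32. In that list 41.2% rose and 5.88% fell. Of 28 matrix and remodelling genes 12 rose and 2 fell (Mmp2 and Plau), 42.9% and 7.14%. Among those that rose were the urokinase receptor Plaur (3.63 ± 0.25), Sdc1 (3.34 ± 0.27) and Thbs1 (2.70 ± 0.40). Interferon and complement genes did not move as groups. Of 33 interferon response genes 1 rose and 1 fell, Irf9 (0.77 ± 0.24) and Bst2 (−0.84 ± 0.27), and of 19 complement genes 1 rose and 1 fell, C5ar1 (0.97 ± 0.36) and Cd59a (−1.71 ± 0.23). C5ar1 was called in 9 of 16 alternatives (adjusted p 0.0123 to 0.146), Bst2 in 14 of 16 and Irf9 in 14 of 15.

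Markers of immune and stromal cells changed little. Of 20 macrophage markers 4 rose and none fell, Cd14 (2.80 ± 0.45), Clec4d (1.38 ± 0.45), Ccr2 (1.08 ± 0.42) and Tyrobp (1.02 ± 0.37). The share of macrophage markers that rose was 20%, below the 28.2% of all genes. Of 16 alternatives Clec4d was called in 11, Ccr2 in 6 and Tyrobp in 9. Their summed level was 206 to 344 FPKM at 8 h and 109 to 262 FPKM in saline, with WT saline replicate 3 the highest saline library, and 7 rose without that library. The count was 2 without WT 8 h replicate 1, and 1 each without WT 8 h replicate 2, WT saline replicate 1 or WT saline replicate 2 and under the scaling without enzyme genes. Of 12 neutrophil markers tested 2 rose, Mmp8 (0.94 ± 0.17) and Il1r2 (0.80 ± 0.28), which was called in 10 of 15 alternatives. Their share, 16.7%, was also below that of all genes. The neutrophil sum was 8.81 to 28.8 FPKM at 8 h and 3.37 to 19.9 FPKM in saline, and 4 of the 16 members were at 0 in all 6 libraries. None of 10 B cell, 7 T and NK cell, 7 mesothelium or 5 red blood cell markers passed, and the B cell sum was 31.7 to 172 FPKM at 8 h and 8.70 to 126 FPKM in saline. Of 18 fibroblast and stellate cell markers 1 rose, 5.56%, Mfap5 (1.51 ± 0.37). The sums overlapped at 246 to 291 FPKM at 8 h and 223 to 308 FPKM in saline. The part of these cells in the cytokine and matrix counts was not tested.

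Endothelial and islet markers were lower. Of 13 endothelial markers 8 fell and none rose, among them Tek (−1.13 ± 0.25), Emcn (−0.96 ± 0.21) and Plvap (−0.91 ± 0.21). The share that fell was 61.5%, where 22.8% of all genes fell and 28.2% rose. The endothelial sum was 47.3 to 64.5 FPKM at 8 h and 84.3 to 107 FPKM in saline. Of 14 islet markers 9 fell and none rose, with Ins1 at 60.7, 135 and 175 FPKM and 436, 235 and 516 FPKM (−1.72 ± 0.59, adjusted p = 0.019) and Ttr at −2.13 ± 0.40. The share of islet markers that fell was 64.3%. The islet sum was 716 to 2192 FPKM at 8 h and 2794 to 5296 FPKM in saline. The islet count was 2 without WT 8 h replicate 1, 5 without WT saline replicate 1 and 1 without WT saline replicate 3. In the HET mice at 8 h 1 islet marker was lower than in HET saline. Of 13 adipocyte markers 2 rose (Pparg, called in 14 of 15 alternatives, and Acvr1c, called in 9 of 15) and 1 fell (Lpl), of 6 mast cell markers 1 fell (Kit), and of 3 Schwann cell and neuron markers 1 rose (Uchl1). Adipocyte shares were 15.4% higher and 7.69% lower, both below those of all genes.

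**Figure D3:**
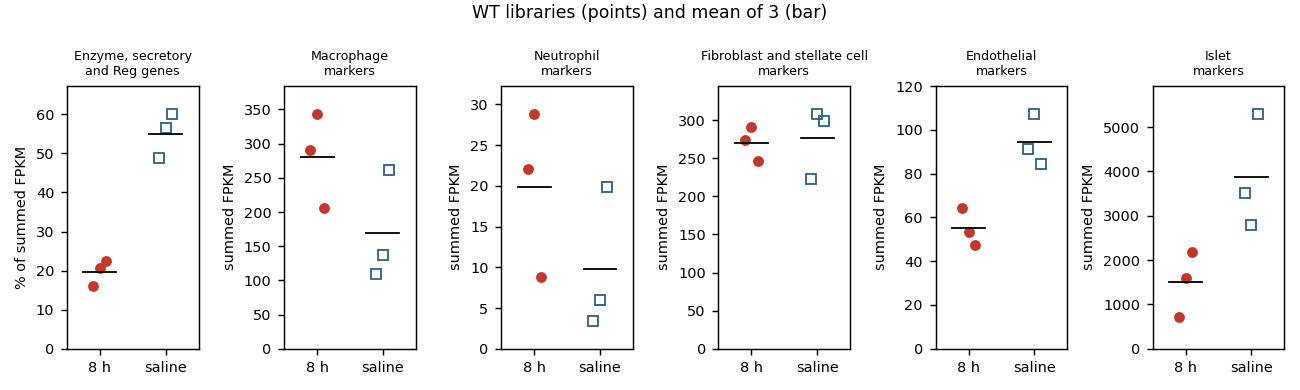
Share of summed FPKM in enzyme, secretory product and Reg genes, and summed FPKM of 5 lists of cell type markers, in each WT 8 h library (filled circles) and WT saline library (open squares), with a bar at the mean of 3. The enzyme share is 16% to 22.5% at 8 h and 48.8% to 60.1% in saline, the endothelial and islet sums do not overlap, and the macrophage, neutrophil and fibroblast sums do.

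The time course placed the 8 h values beside later times in WT mice, in which 48 h shares the guide of 8 h, and 24 h that of WT saline replicates 1 and 2, with the guide of replicate 3 not stated. Rcan1 averaged 5.08 FPKM in saline, 1253 FPKM at 8 h, 8.81 FPKM at 24 h and 5.20 FPKM at 48 h. Within the v2 guide it was lower at 48 h than at 8 h (log2 fold change −7.66 ± 0.17, adjusted p = 4.81e-17). Krt8 averaged 76.9, 5303, 277 and 138 FPKM at the same 4 points (48 h minus 8 h, −5.27 ± 0.25), Atf3 1.28, 266, 8.44 and 6.16 FPKM (−5.23 ± 0.24) and Chac1 18.2, 746, 6.33 and 6.05 FPKM (−6.74 ± 0.46). These 4 genes were at their highest at 8 h. At 24 h Chac1 was below its saline mean and the other 3 were above theirs. Ccl2 averaged 0.994 FPKM in saline, 26.0 FPKM at 8 h, 22.7 FPKM at 24 h and 10.7 FPKM at 48 h. It was higher at 24 h than in saline (3.59 ± 0.35, adjusted p = 5.09e-07).

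Genes that were low at 8 h differed in their later levels. Of the 14 digestive enzyme genes none was higher or lower at 48 h than at 8 h, at a median of −0.72, and of 13 secretory product genes 3 were higher and 2 lower, at a median of 0.09. Sycn averaged 34967 FPKM in saline, 13633 FPKM at 8 h, 4253 FPKM at 24 h and 6070 FPKM at 48 h, and Ctrl 80533, 14567, 8093 and 12357 FPKM. By these means both were lower at 24 h than at 8 h, but this was not tested and the guides differ. The scaling without enzyme, secretory product and Reg genes divides the WT 8 h libraries by 1.30 to 1.67 and the WT 24 h libraries by 0.707 to 0.750. The order of 8 h and 24 h for Ctrl thus depends on the scaling. Cckar averaged 209 FPKM in saline, 4.39 FPKM at 8 h, 132 FPKM at 24 h and 127 FPKM at 48 h (48 h minus 8 h, 4.58 ± 0.40, adjusted p = 1.56e-08). Sel1l averaged 385, 38.0, 116 and 167 FPKM (2.07 ± 0.34), and Nr5a2 10.7, 2.74, 5.52 and 5.45 FPKM (0.77 ± 0.19). Rnase1 averaged 50300, 2570, 5747 and 8783 FPKM, and its 48 h minus 8 h difference did not pass (1.72 ± 0.80, adjusted p = 0.0817). Reg3g averaged 61.6, 3.10, 2790 and 1604 FPKM (8.62 ± 0.83, adjusted p = 1.27e-07) and Reg2 8010, 861, 17533 and 19633 FPKM, so that both were lowest at 8 h and highest at 24 or 48 h.

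Over all genes 2899 were higher (22.5% of those tested) and 3528 lower (27.4%) at 48 h than at 8 h, and 4972 and 1431 when libraries were scaled to the total without enzyme, secretory product and Reg genes, which moved the median of all genes from 0.01 to 0.46. For 24 h minus saline the counts were 2631 higher (20.5%) and 2406 lower (18.7%), and 7100 and 507 under that scaling, with medians of 0.05 and 0.68. The same scaling moved the median of 8 h minus saline from 0.05 to 0.0018 and gave 4945 calls in place of 6556. Of the ATF4 targets 33 of 36 were lower at 48 h than at 8 h, and 2 were higher and 21 lower at 24 h than in saline. Of the ribosome biogenesis genes 34 of 42 were lower at 48 h than at 8 h, and all 6 Reg genes were higher. Of 39 cell cycle genes 27 were higher at 48 h than at 8 h, and 32 were higher at 24 h than in saline, against the 3 that were higher at 8 h than in saline. These comparisons share libraries with that of 8 h and saline, and each is given with its own values.

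**Figure D4:**
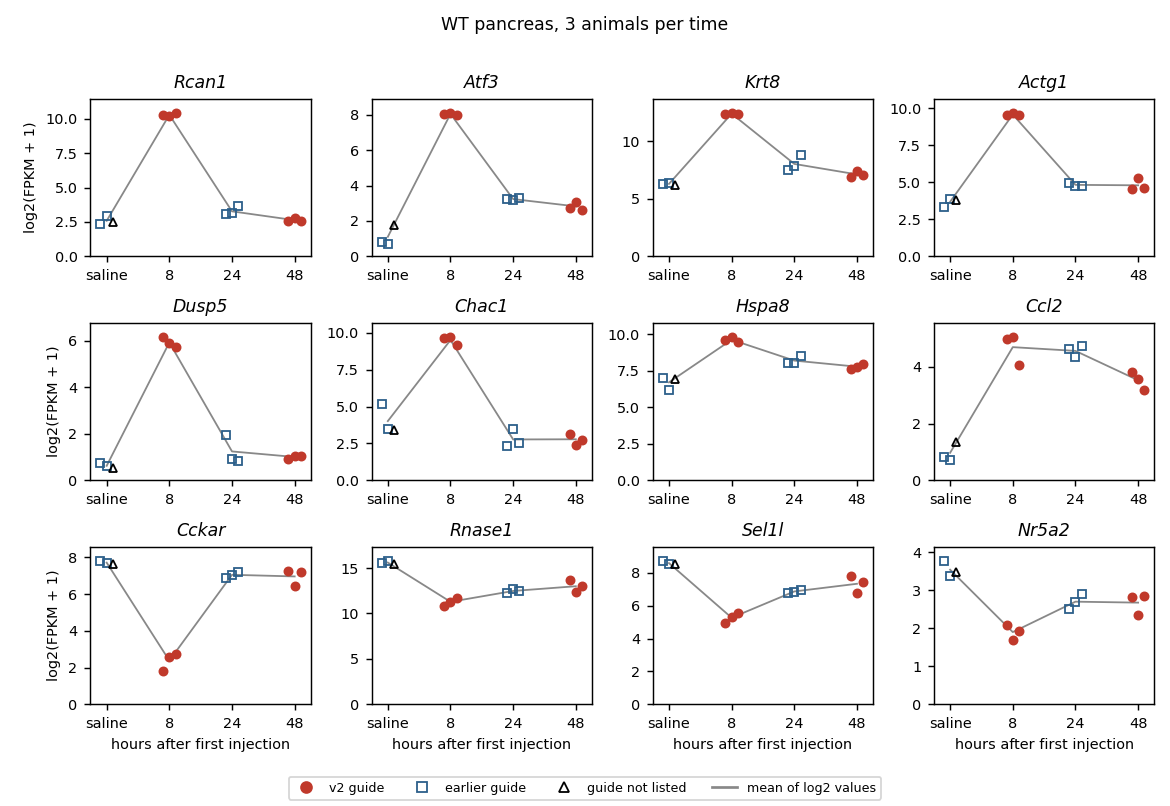
Level of 12 genes in the 12 WT libraries as log2(FPKM + 1), by time after the first injection with saline at the left, with 3 animals per time and a line through the group means of the log2 values. Filled circles are libraries of the v2 guide (8 h and 48 h), open squares those of the earlier guide (saline and 24 h) and the open triangle the saline library listed under neither. Rcan1, Atf3 and Krt8 are highest at 8 h, and Cckar, Sel1l and Nr5a2 are lowest there.

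Mice with the +/- genotype of Nr5a2 gave a second measurement of the 8 h response, with the same change of guide. Its fold changes share no library with those of WT. The variance of each gene was estimated from all 24 libraries for both, so the calls in WT and HET are not independent. In HET 3947 genes were higher (30.7%) and 3155 lower (24.5%) at 8 h than in saline, 55.2% in either direction. Of the genes called, 5526 were called in both genotypes in the same direction, which is 77.8% of the 7102 HET calls and 84.3% of the 6556 WT calls, and 4 were called in opposite directions. The sign was the same in HET for 97.8% of the WT calls. Rcan1 changed by 7.35 ± 0.17 in HET and 7.71 ± 0.17 in WT, Krt8 by 5.94 ± 0.25 and 6.09 ± 0.25, Cckar by −5.36 ± 0.40 and −5.33 ± 0.40, and Sel1l by −3.47 ± 0.34 and −3.32 ± 0.34. Ins1 measured −0.08 ± 0.59 in HET and −1.72 ± 0.59 in WT, a difference that did not pass (adjusted p = 0.553).

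The test of the difference between the responses, HET minus WT, called 3 of 12856 genes, 0.0233% of those tested, 2 of them higher (0.0156%) and 1 lower (0.00778%), while 1203 had an unadjusted p below 0.05. St18, a zinc finger factor gene, measured 0.327, 0.999 and 0.575 FPKM in HET at 8 h and 0, 0.461 and 0 FPKM in HET saline, and 0.181, 0.219 and 0.206 FPKM in WT at 8 h and 1.25, 2.13 and 1.91 FPKM in WT saline (difference 1.69 ± 0.27, adjusted p = 0.0249). Its levels were at or below the 1 FPKM of the filter in all but WT saline. The other 2 were genes without an official name that the table listed at 0 in every library but those of 1 group. ENSMUSG00000082050 measured 4.31, 3.77 and 9.37 FPKM in HET at 8 h, and Gm11032 42.6, 30.1 and 31.8 FPKM in WT at 8 h. That number of calls ranged from 0 to 25 over the alternatives.

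**Figure D5:**
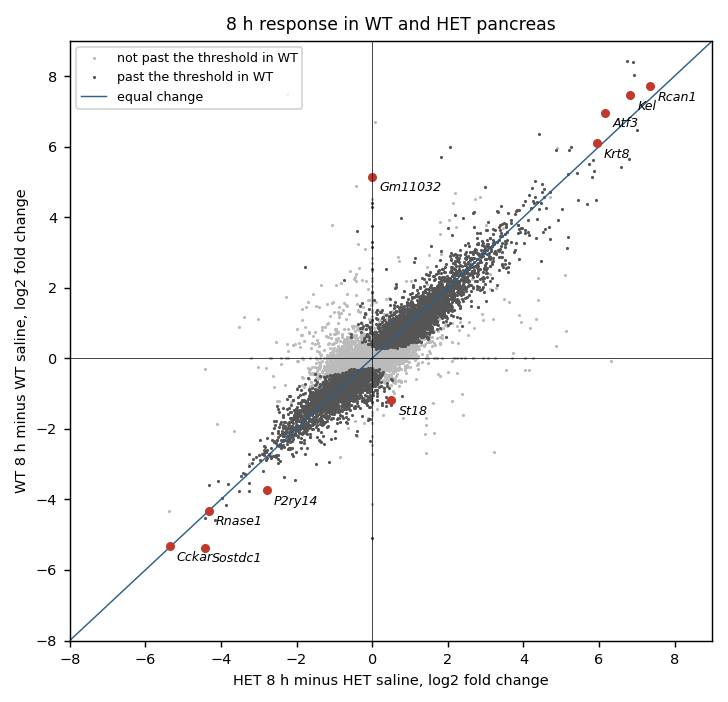
Log2 fold change at 8 h against saline of each gene in HET mice (horizontal axis) and in WT mice (vertical axis), with genes past the threshold in WT in dark grey and the line of equal change in blue. Named genes are in red. Rcan1, Kel, Atf3 and Krt8 at the upper right and Cckar, Rnase1 and Sostdc1 at the lower left lie near the line, and Gm11032 and St18 lie off it. Kel measured 202, 259 and 218 FPKM in WT at 8 h and 0.0662, 0.0859 and 0.869 FPKM in WT saline (7.45 ± 0.29). Its level is uncertain. It is a neighbour of trypsinogen genes, several of which were listed at 0, and whether it took their reads was not tested.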

How the data were processed

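Polyadenylated RNA of whole pancreas was sequenced on a Genome Analyzer IIx, per the labels' protocols, with RNA integrity numbers of 6.6 to 9.2. The deposited table holds normalized FPKM values for 24 libraries. Its header names no unit; the submitters' processing notes name CASAVA 1.8, Bowtie, Cufflinks 2.0.2, Cuffnorm and build mm9, without roles. Total reads are not given, so depth is unknown beyond the relative values reported. Exact zeros of a whole group were treated as missing where every library of another group reached 100 FPKM, which removed 13 genes from the comparison of WT 8 h with WT saline. Genes that reached 1 FPKM in 3 or more libraries were fitted as log2(FPKM + 1) with limma 3.58.1 in R 4.3.3 (trended and robust variance), as 8 group means over 24 libraries with 16 residual degrees of freedom, and p-values were adjusted by Benjamini-Hochberg over all genes tested. The count models need counts and were not used. Replicate numbers follow accession order and pair nothing.

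The members and gene lists were chosen with earlier results of these data known. Named genes were Nr5a2, in each direction the 15 largest changes among called genes with non-overlapping groups, an official symbol and, in the higher group, no zero and a mean of 10 FPKM or more, up to 5 members of each list by adjusted p, and up to 5 genes per direction of the genotype difference. Others are marked where they appear or complete a count. Alternatives changed the pseudocount, the filter, the treatment of zeros, the scaling, the variance estimate and the libraries included. Some members of the lists are counted but not reported here by name.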

Additional observations from a re-analysis of the deposited data

Results flagged for a closer look

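A difference between the HET and WT responses to caerulein at 8 h, tested as an interaction in limma, was found for 3 genes. St18 was higher at 8 h than in saline in HET and lower in WT (HET minus WT, adjusted p = 0.0249), at no more than 2.13 FPKM in any of these libraries. ENSMUSG00000082050 had values in HET 8 h libraries and was listed at 0 in the other libraries of both genotypes at 8 h and saline (adjusted p = 0.00175). Gm11032 had values in WT 8 h libraries and was listed at 0 in the others (adjusted p = 6.76e-14). The last 2 rest on exact zeros, which in this table can be failed estimates; the part of such zeros was not tested.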

How the results depend on the processing

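The count for 8 h minus saline in WT, 6556 genes, lay between 5839 and 6197 when 1 library was left out and was 3134 with a filter of 10 FPKM, which tested fewer genes. That filter gave 2900 for 48 h minus 8 h and 2568 for 24 h minus saline. The comparison of 24 h with saline gave 7607 with scaling to the total without enzyme, secretory product and Reg genes and 3204 with variances from its own 6 libraries only; the cause was not tested. The difference between the genotypes gave 1 gene with a pseudocount of 0.1, 25 with 5, 6 with no filter and 0 with the filter of 10 FPKM. It gave 10 with zeros kept, 1 with that scaling and 3 to 12 with 1 WT 8 h or WT saline library left out. No HET library was left out of this comparison. Of 195 named genes called, 175 were called under every alternative run. The sign turned for uncalled Cd3g (−0.31 without WT 8 h replicate 1, −0.37 without WT saline replicate 1) and Hbb-bs (−0.13 without WT 8 h replicate 3). With 1 library left out their ranges were −0.37 to 0.62 and −0.13 to 0.71. With promoters cut to 150 bases, motif shares among genes that rose and fell were 3.35% and 2.15% for AP-1, 4.77% and 3.34% for CRE-like, 2.44% and 2.90% for heat shock, 1.46% and 0.966% for the ATF4 element, 6.30% and 6.76% for the E-box, 0.401% and 0.395% for NR5A2, 0.947% and 0.571% for the CArG box and 2.80% and 2.24% for NF-kB, lower because the window is shorter. No paired analysis was possible because replicate numbers were given in accession order and the labels pair no animals.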
